A study of Sus scrofa with 9 samples.

Results

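The genes described here encode the ion channels, ion pumps, calcium release proteins and endplate receptors of pig embryonic longissimus dorsi, a long muscle beside the spine. They were taken by gene symbol, as every entry of the expression table whose symbol begins with the name of a potassium, sodium, calcium or chloride channel family, a nicotinic, purinergic or TRP family, an anoctamin, or a pump, store sensor or triad family of this kind. The rule found 166 genes among 19643 entries, of which 11179 entries (56.91%) could be paired with a symbol. Muscle was compared between 3 breeds with 3 libraries each: Tibetan pig and Wujin pig, which the labels class as Chinese indigenous breeds, and Large White pig, classed as introduced. The labels give the stage as embryonic with no day of gestation, and give neither litter nor sex. Nor do they state that each library is a different animal, so a p-value here weighs the scatter among the libraries at hand, which may be technical. No treatment or altered gene is named for any group. RYR1, RYR3, CASQ2, JPH2, ORAI1, ATP2A2, CHRNB1, CHRND, CHRNG, RAPSN, CLCN1, KCNJ2 and KCNJ11 had no entry paired with their symbol and were not analysed here.

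A motor nerve excites a muscle fibre by releasing acetylcholine onto nicotinic receptors clustered at the endplate. Sodium channels then carry an action potential along the surface and into the transverse tubules, where the voltage-sensing calcium channel opens the ryanodine receptor of the sarcoplasmic reticulum, the calcium store of the fibre. Potassium and chloride channels end the excitation, and the sodium pump restores the ion gradients. In mammals the developing fibre carries a fetal receptor, spread over its surface, that is later replaced by an adult form held at the endplate.

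Values are FPKM, fragments per unit of transcript length and of mapped reads, as deposited by the authors. The number of reads behind a library was not in the files. The totals of the FPKM table ran from 505042 to 677783, and relative depth, read from the smallest steps of the values, reached at most 1.22 times that of Large White 1 and was nowhere lower than it. That reading was confined in advance to a window around equal depth, so it could not have returned a large difference. Libraries of a breed correlated at 0.940 to 0.968 across entries on the log2 scale, Tibetan with Wujin libraries at 0.749 to 0.785, Tibetan with Large White libraries at 0.697 to 0.742, and Wujin with Large White libraries at 0.890 to 0.955, which overlaps the range within Wujin. The 10 highest entries took 26.6% to 38.6% of the total in Tibetan libraries, 20.4% to 21.0% in Wujin libraries and 15.6% to 23.1% in Large White libraries. The median entry was 0.77 lower on the log2 scale in Tibetan than in Large White muscle (a median log2 change of -0.77), with -0.20 for Wujin minus Large White and -0.55 for Tibetan minus Wujin. A change is therefore given as a relative log2 change, the fitted change on the log2(FPKM + 1) scale minus that median, and calls are given also after median-ratio scaling, which sets the median near 0. Each limma p-value beside a relative change tests the fitted change against 0, before that median is subtracted. It is not a test of the relative change. The added 1 FPKM understates the change of genes with low values.

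Markers of several cell types moved with breed. Summed levels of 7 fibroblast and connective tissue genes lay between 321 and 359 FPKM in Tibetan libraries, between 3065 and 5617 in Wujin libraries and between 5357 and 5994 in Large White libraries, and all 7 were lower in Tibetan than in Large White muscle. The 5 muscle fibre genes found summed to between 30914 and 69851 FPKM in Tibetan libraries, between 18674 and 22980 in Wujin libraries and between 10153 and 13909 in Large White libraries. Within that sum ACTA1, skeletal actin, was listed at 0 in Tibetan 2 beside 37424 and 41829 FPKM in Tibetan 1 and Tibetan 3, so an exact 0 may be a failed estimate and zeros below are given as listed. The 9 Schwann cell and neuron genes found summed to between 11.3 and 21.9 FPKM in Tibetan libraries, between 32.3 and 38.9 in Wujin libraries and between 32.1 and 39.8 in Large White libraries, with SNAP25 at or near 0 throughout. Smooth muscle and pericyte genes summed to 165 to 189, 690 to 727 and 532 to 684 FPKM in Tibetan, Wujin and Large White libraries. In Tibetan against Large White muscle 3 of the 4 tested were lower. The other, TAGLN, was not called and averaged 103, 94.6 and 89.9 FPKM in the same order of breeds. The untested MYH11 averaged 1.42, 0.365 and 0.835 FPKM, highest in Tibetan libraries. Of the 4 heart muscle genes found, GATA4 and HCN4 were near 0 in every library and TBX5 reached at most 0.509 FPKM. The fourth, MYH6, a myosin heavy chain of heart and of some skeletal fibres, lay between 1294 and 1959.6 FPKM in Tibetan libraries, between 532 and 794 in Wujin and between 628 and 759 in Large White, and was higher in Tibetan than in Large White muscle (limma adjusted p = 0.000659). The part of these cell types in the results below was not tested, and in whole muscle fewer cells of a type and less RNA per cell cannot be told apart.

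Of the 166 genes, 72 had a mean of at least 1 FPKM and were tested, and 94 lay below it. Among the 72, all 3 breed means reached 1 FPKM for 47 genes and 2 breed means for 21. KCNC1, KCNC4 and CHRNA10 passed through the Tibetan libraries alone and CACNG7 through the Large White libraries alone. Just inside the limit lay SCN7A, CACNG7 and TRPV2 with means of 1.01, 1.03 and 1.04 FPKM, and just outside it ATP2B2, KCNE3 and CHRNA9 with 0.985, 0.979 and 0.908 FPKM.

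In Tibetan against Large White muscle, 28 of the 72 tested genes were called higher, where 13% of all 13106 tested entries were, and 36 were called lower, where 63.2% of all were (limma, adjusted p under 0.05). In either direction that is 64 genes, beside 76.2% of all entries. After median-ratio scaling 35 genes were higher and 20 lower, beside 32.4% and 33% of all entries. The counts by role given below are read against the same shares of all entries, 13% higher and 63.2% lower as deposited and 32.4% and 33% after median-ratio scaling, and roles of so few genes show nothing particular by their counts alone. The 72 genes had a median relative log2 change of 0.28. Among those of the 72 described below, the widest rises included CASQ1, ATP1B1 and KCNA7. KCNC1 and KCNC4 also rose widely, but they were tested through their Tibetan values alone. On the log2(FPKM + 1) scale the deepest falls were in CHRNA1, CLCN5, KCND2, CACNA1G and MUSK, an order that the added 1 FPKM affects. By the ratio of Tibetan to Large White means, CHRNA1 (0.0448) and MUSK (0.0818) fell less than several genes of lower level. Among these were CHRNA3 (0.00546), KCNK1 (0.0260) and KCNAB2 (0.0275). In Wujin against Large White muscle 8 genes were higher and 8 lower, beside 1.67% and 4.85% of all tested entries, and after median-ratio scaling 10 and 4, beside 1.86% and 1.27%. In Tibetan against Wujin muscle 22 were higher and 32 lower, beside 13.8% and 53.9% (67.7% in either direction), and after median-ratio scaling 33 and 20, beside 30.9% and 30.4%. The 3 comparisons share libraries and are not independent of each other. Values that did not overlap between breeds were common: in Tibetan against Large White muscle 14.1% of all tested entries had every library higher and 66.5% every library lower, in Wujin against Large White muscle 9.67% and 35.3%, and in Tibetan against Wujin muscle 14.2% and 53.5%.

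**Figure D1:**
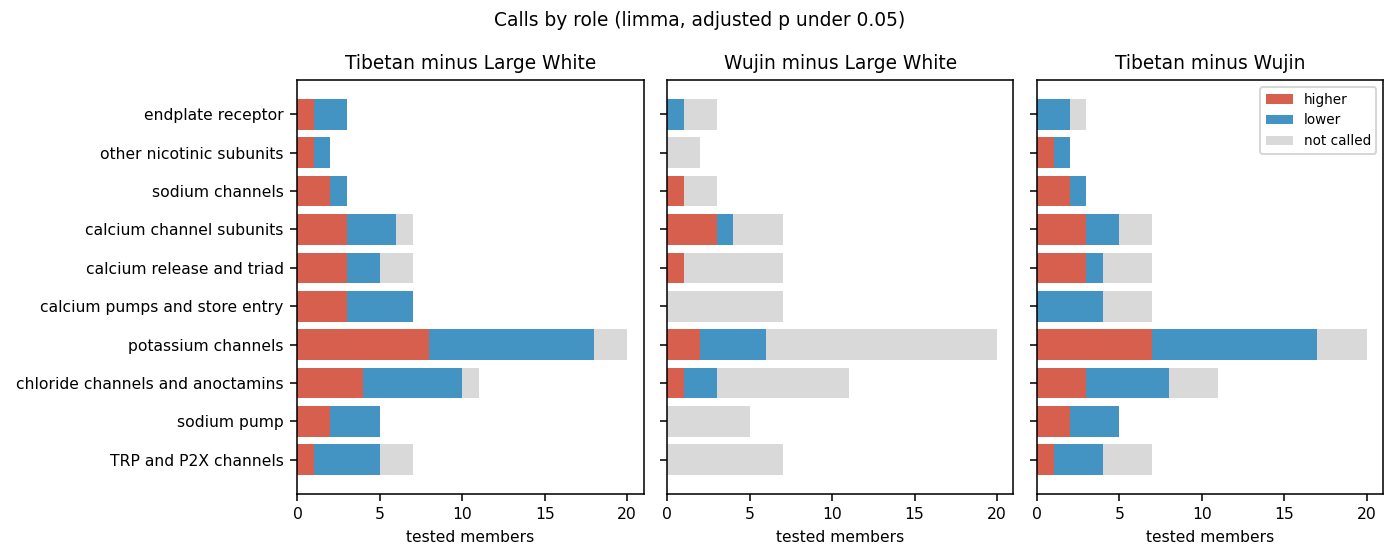
Number of tested genes (x axis) called higher, called lower or not called in each role (y axis), for the 3 pairs of breeds in separate panels. Among the 20 potassium channel genes, 8 were higher and 10 lower in Tibetan than in Large White muscle, and 2 and 4 in Wujin than in Large White muscle.

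The endplate genes split in direction. CHRNA1, the subunit of the muscle acetylcholine receptor that carries most of the transmitter site and is present in both the fetal and the adult form, stood at 1.64, 1.47 and 2.17 FPKM in Tibetan libraries, 9.55, 27.1 and 21.7 in Wujin libraries and 39.0, 41.4 and 37.3 in Large White libraries. No value of one breed fell within the range of another. CHRNA1 fell in Tibetan relative to Large White muscle, with a relative log2 change of -3.10 ± 0.31 (SE, limma adjusted p = 4.34e-06), and relative to Wujin muscle (relative log2 change -2.23, limma adjusted p = 4.42e-05). Its Wujin minus Large White change of -0.90 missed the threshold (limma adjusted p = 0.0624), and Wujin 1 was the low Wujin library.

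MUSK, the receptor tyrosine kinase that clusters acetylcholine receptors in response to nerve agrin, was at 0.758, 0.621 and 1.62 FPKM in Tibetan libraries, 2.87, 3.03 and 2.66 in Wujin and 10.4, 11.6 and 14.8 in Large White. The 3 breeds did not overlap, in the same order as for CHRNA1. Relative to all entries, its log2 change was -1.97 for Tibetan minus Large White (SE 0.20, limma adjusted p = 2.36e-06), -1.57 for Wujin minus Large White (limma adjusted p = 0.00445) and -0.43 for Tibetan minus Wujin (limma adjusted p = 0.00183). All 3 MUSK calls held without any 1 library.

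CHRNE, the epsilon subunit that marks the adult receptor, went the other way in Tibetan muscle. It was at 4.67, 3.77 and 4.17 FPKM in Tibetan libraries, 4.51, 3.71 and 2.48 in Wujin libraries and 3.47, 1.19 and 1.21 in Large White libraries. The Tibetan values all lay above the Large White values, but Large White 1 stood close to them. The relative log2 change for Tibetan minus Large White was 1.67 ± 0.28 (SE). The fitted log2 change that limma tested was 0.90 (limma adjusted p = 0.0163). The call was lost without Tibetan 1, Large White 2 or Large White 3, with a highest adjusted p of 0.0652, and CHRNE was not called in the other comparisons of the deposited values. After median-ratio scaling it was also called higher in Tibetan than in Wujin muscle (log2 change 0.81).

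Among the 8 nicotinic subunits outside the muscle receptor, 2 were tested. CHRNA3, a subunit of the receptors of autonomic ganglia, was listed at 0, 0.0294 and 0.0147 FPKM in Tibetan libraries, 1.62, 1.83 and 1.67 in Wujin and 2.80, 2.47 and 2.81 in Large White. It was near 0 in the Tibetan libraries, with relative log2 changes of -1.09 against Large White (limma adjusted p = 1.08e-06) and -0.86 against Wujin (limma adjusted p = 7.17e-06). CHRNA10, known from hair cell receptors of the inner ear, was at 2.08, 2.18 and 3.55 FPKM in Tibetan, 0.901, 0.940 and 0.893 in Wujin and 0.451, 0.242 and 0.872 in Large White libraries, a rise of 2.01 in relative log2 change against Large White (SE 0.20, limma adjusted p = 0.000373). CHRNA10 passed the limit of 1 FPKM through the Tibetan libraries alone, so a difference was built into its being tested.

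Endplate partners outside the channel families were read from a list of 23 genes, of which 17 were found and tested. In Tibetan against Large White muscle 3 were higher and 11 lower, against Wujin muscle 2 and 11, and in Wujin against Large White muscle 2 and 0. Of all tested entries 13% were higher and 63.2% lower in Tibetan than in Large White muscle, and 13.8% and 53.9% in Tibetan than in Wujin muscle, so the number of lower endplate partners as deposited says nothing particular about them. After median-ratio scaling the counts were 5 and 9, 4 and 11, and 2 and 0 in the same comparisons, where 32.4% and 33%, 30.9% and 30.4%, and 1.86% and 1.27% of all entries were called. AGRN, the nerve and muscle protein that activates MUSK, averaged 2.61 ± 0.74 FPKM in Tibetan, 13.7 ± 3.4 in Wujin and 11.5 ± 1.4 in Large White libraries (SD, n = 3 each). LRP4, the agrin receptor, averaged 0.922 ± 0.039, 7.32 ± 1.95 and 8.65 ± 2.53 FPKM in Tibetan, Wujin and Large White libraries. COLQ, the collagen tail that anchors acetylcholinesterase, averaged 0.248 FPKM in Tibetan, 13.6 in Wujin and 9.56 in Large White libraries. It was also called higher in Wujin than in Large White muscle (limma adjusted p = 0.0447). Whether that call holds with a library left out is not given here. The 3 that rose in Tibetan muscle were DVL1, SNTB1 and DTNA; the last 2 encode parts of the dystrophin complex. ERBB3, a neuregulin receptor of both Schwann cells and muscle, averaged 0.271, 32.9 and 32.2 FPKM in Tibetan, Wujin and Large White libraries. The summed level of the Schwann cell and neuron genes given above was likewise lower in Tibetan libraries. In Wujin a, Wujin b and the Large White libraries most of that sum was NGFR, a neurotrophin receptor. In Wujin 1 it was 15.2 of 38.9 FPKM. NGFR was at most 0.725 FPKM in Tibetan libraries, between 15.2 and 21.0 in Wujin and between 18.1 and 22.5 in Large White. Of the 5 genes of the list that were tested, 1 was higher, 3 were lower and 1 was not called in Tibetan against Large White muscle. Their part in the ERBB3 difference was not tested.

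**Figure D2:**
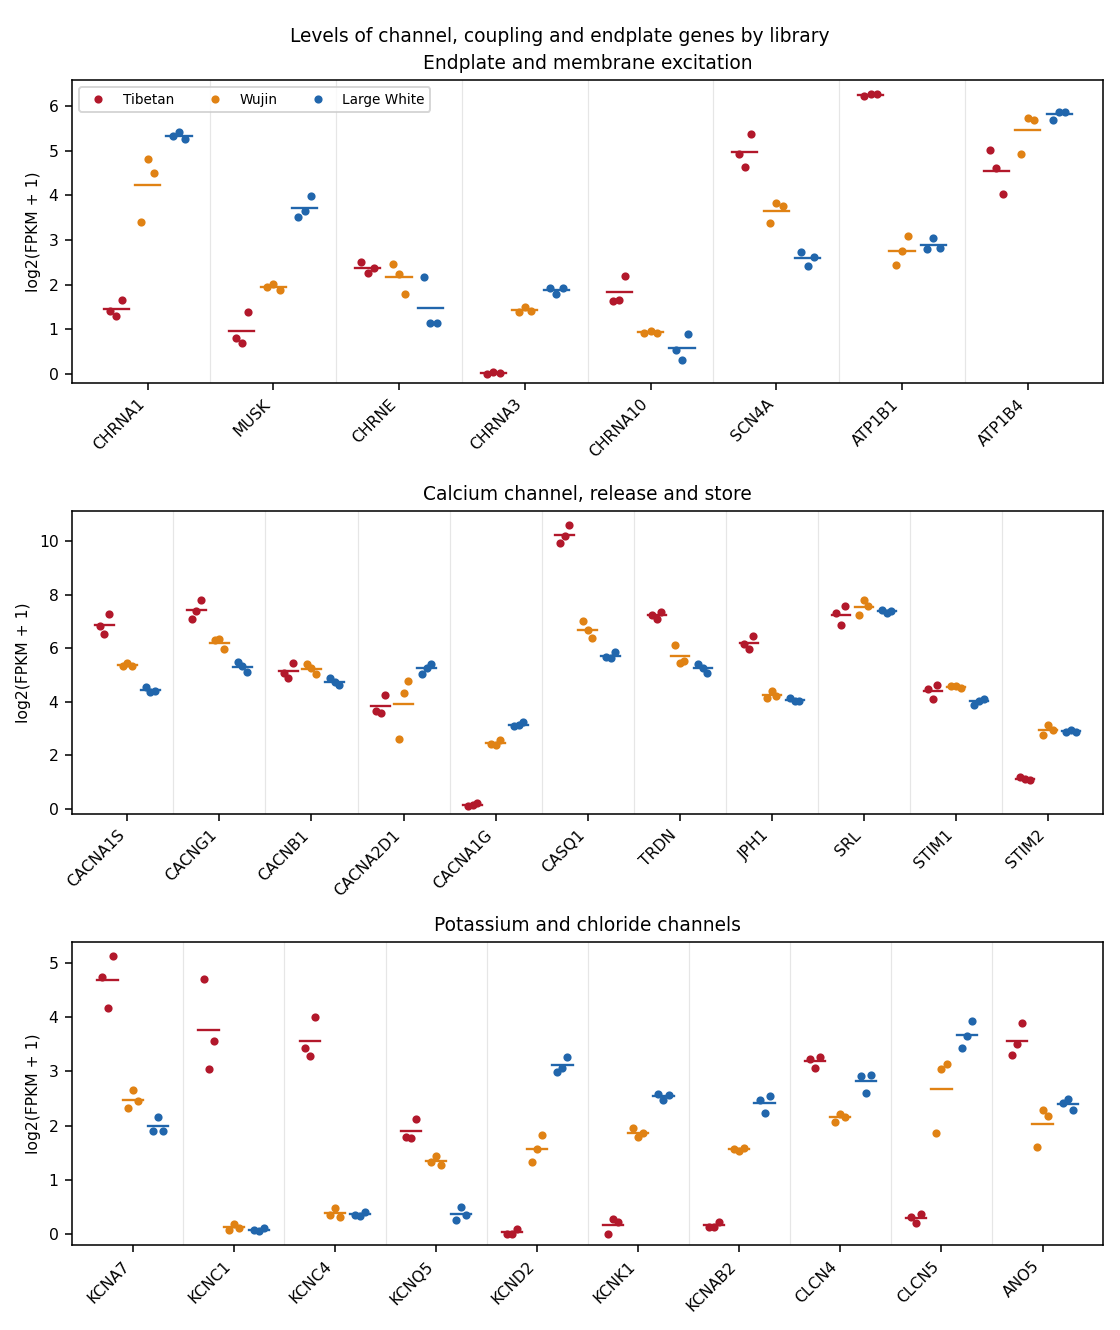
Level of selected genes in each library, as log2(FPKM + 1) (y axis), by gene (x axis), with Tibetan in red, Wujin in orange and Large White in blue; points are libraries and bars are breed means. CHRNA1 and MUSK step up across the breeds while SCN4A, CACNA1S and CASQ1 step down, and ATP1B1, KCNC1 and KCNC4 stand high in Tibetan libraries with Wujin and Large White close together.

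SCN4A, the pore of the skeletal muscle sodium channel, rose in Tibetan muscle. It was at 29.4, 23.8 and 40.3 FPKM in Tibetan libraries, 9.33, 13.1 and 12.6 in Wujin and 5.63, 4.38 and 5.18 in Large White. The breeds did not overlap, and the ratio of means was 6.16 for Tibetan over Large White and 2.31 for Wujin over Large White. Its relative log2 change was 3.16 for Tibetan minus Large White (SE 0.20, limma adjusted p = 6.23e-06), 1.88 for Tibetan minus Wujin (limma adjusted p = 0.00032) and 1.25 for Wujin minus Large White (limma adjusted p = 0.0294).

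SCN7A, an atypical channel of glia and other nonmuscle cells, went the other way, at 0.0593, 0.0899 and 0.0897 FPKM in Tibetan, 0.513, 1.41 and 1.51 in Wujin and 1.78, 1.97 and 1.72 in Large White libraries. It was lower in Tibetan than in Large White muscle (relative log2 change -0.61, limma adjusted p = 0.000157).

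Of the 5 tested sodium pump genes 2 were higher and 3 lower in Tibetan than in Large White muscle, or 2 higher and 0 lower after median-ratio scaling, and with 63.2% of all entries lower as deposited the 3 lower genes say nothing particular about the pump. ATP1B1, a beta subunit, which carries the pump to the membrane, was at 73.3, 75.7 and 75.6 FPKM in Tibetan libraries, 4.45, 5.69 and 7.54 in Wujin and 5.94, 7.24 and 6.10 in Large White, a relative log2 change of 4.13 for Tibetan minus Large White (SE 0.16, limma adjusted p = 2.55e-07). ATP1B4, which in placental mammals is a muscle protein of the inner nuclear membrane and not a pump subunit, was at 31.3, 23.4 and 15.4 FPKM in Tibetan, 29.6, 52.0 and 50.7 in Wujin and 50.7, 57.7 and 57.3 in Large White. ATP1B1 took 69.2% to 80.2% of the summed FPKM of ATP1B1, ATP1B2 and ATP1B4 in Tibetan libraries, between 9.20% and 12% in Wujin libraries and between 9.12% and 10.5% in Large White libraries, and ATP1B4 took most of the rest. ATP1B2 made up 1.27% to 3.39%, 6.70% to 8.01% and 5.08% to 5.51% of the sum in Tibetan, Wujin and Large White libraries. These shares, chosen for description after the values were seen, do not depend on how a library is scaled.

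**Figure D3:**
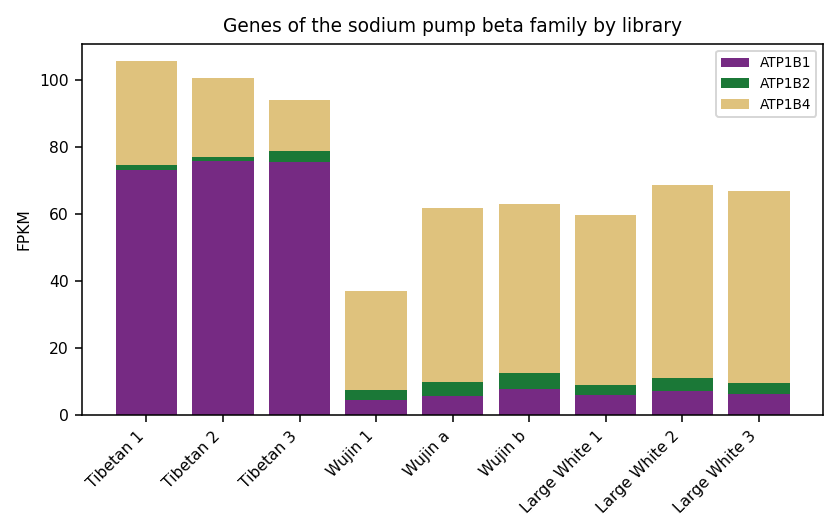
Stacked FPKM (y axis) of ATP1B1, ATP1B2 and ATP1B4 in each library (x axis). ATP1B1 forms most of the bars of the 3 Tibetan libraries, and ATP1B4 most of the bars of the 6 Wujin and Large White libraries.

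Of 18 calcium channel subunit genes 7 were tested, with 3 higher and 3 lower in Tibetan than in Large White muscle, or 4 and 2 after median-ratio scaling. Voltage sensor genes were among those that rose. CACNA1S, the pore of the skeletal muscle L-type channel and the voltage sensor of contraction, was at 112, 90.0 and 153 FPKM in Tibetan libraries, 38.9, 42.4 and 38.9 in Wujin and 22.4, 19.3 and 20.0 in Large White. CACNG1, its gamma subunit, was at 135, 166 and 219.6 FPKM in Tibetan, 77.9, 79.8 and 61.3 in Wujin and 43.3, 39.6 and 33.8 in Large White. Both genes separated the 3 breeds without overlap, in the order Tibetan, Wujin, Large White. The relative log2 change of CACNA1S was 3.21 for Tibetan minus Large White (SE 0.18, limma adjusted p = 2.58e-06), 2.06 for Tibetan minus Wujin (limma adjusted p = 6.74e-05) and 1.13 for Wujin minus Large White (limma adjusted p = 0.0295). For CACNG1 it was 2.88, 1.77 and 1.09 in the same comparisons, and all 3 were called.

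The other subunits differed in their calls. CACNB1, the cytoplasmic beta subunit that couples the complex to the release channel, was at 32.7, 28.6 and 42.7 FPKM in Tibetan, 41.5, 37.3 and 31.6 in Wujin and 28.4, 25.3 and 23.4 in Large White libraries, and was called in no comparison of the deposited values (limma adjusted p = 0.0514, 0.633 and 0.0866 for Tibetan minus Large White, Tibetan minus Wujin and Wujin minus Large White). After median-ratio scaling it was called higher in Tibetan than in Large White muscle and than in Wujin muscle (log2 change 0.63 against Wujin). CACNA2D1, the alpha 2 delta subunit, was at 11.5, 10.8 and 18.0 FPKM in Tibetan, 5.08, 19.0 and 26.1 in Wujin and 31.6, 37.7 and 41.5 in Large White. It was called lower in Tibetan than in Large White muscle (relative log2 change -0.65, limma adjusted p = 0.0213), a call lost after median-ratio scaling and without any 1 of Tibetan 1, Tibetan 2, Large White 2 or Large White 3 (highest adjusted p 0.0684). CACNG6, a further gamma subunit of skeletal muscle, was at 14.9, 21.5 and 25.1 FPKM in Tibetan, 16.1, 11.4 and 11.0 in Wujin and 6.55, 5.49 and 6.09 in Large White and was higher in Tibetan than in Large White muscle (relative log2 change 2.35, limma adjusted p = 9.26e-05). CACNG1 kept 79.3% to 89.8% of the summed FPKM of CACNG1, CACNG6, CACNG7 and CACNG8 in every library.

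CACNA1G, a low-voltage T-type channel of developing and pacemaking cells, was at 0.0625, 0.110 and 0.168 FPKM in Tibetan libraries, 4.33, 4.22 and 4.90 in Wujin and 7.47, 7.67 and 8.33 in Large White. It thus ran opposite to CACNA1S, with no overlap between breeds. Relative log2 changes were -2.21 for Tibetan minus Large White (SE 0.11, limma adjusted p = 8.67e-08), -1.75 for Tibetan minus Wujin (limma adjusted p = 3.52e-07) and -0.49 for Wujin minus Large White (limma adjusted p = 0.019). Its last call was lost after median-ratio scaling.

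Of 9 calcium release and triad genes 7 were tested, with 3 higher and 2 lower in Tibetan than in Large White muscle, or 4 and 0 after median-ratio scaling. CASQ1, calsequestrin, which binds calcium inside the sarcoplasmic reticulum of fast fibres, was at 974, 1173 and 1536 FPKM in Tibetan libraries, 127, 100.02 and 82.5 in Wujin and 49.8, 48.2 and 56.8 in Large White. It was the most abundant of the 166 genes in the Tibetan libraries, with means of 1228 ± 285, 103 ± 22 and 51.6 ± 4.5 FPKM in Tibetan, Wujin and Large White muscle (SD, n = 3 each). The relative log2 change was 5.30 for Tibetan minus Large White (SE 0.20, limma adjusted p = 1.7e-07), 4.11 for Tibetan minus Wujin (limma adjusted p = 7.43e-07) and 1.16 for Wujin minus Large White (limma adjusted p = 0.0349).

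TRDN, triadin, which anchors calsequestrin to the release channel, was at 148, 135 and 163 FPKM in Tibetan libraries, 68.2, 42.8 and 45.2 in Wujin and 41.1, 37.4 and 32.9 in Large White. JPH1, junctophilin 1, which holds the transverse tubule against the store, was at 70.1, 61.1 and 85.5 FPKM in Tibetan, 16.5, 19.8 and 17.4 in Wujin and 16.4, 15.2 and 15.1 in Large White. Both were higher in Tibetan than in Large White muscle, with relative log2 changes of 2.75 for TRDN (SE 0.18, limma adjusted p = 1.1e-05) and 2.91 for JPH1 (SE 0.14, limma adjusted p = 1.37e-06). Against Large White muscle the Wujin values of both did not overlap but missed the threshold (limma adjusted p = 0.13 for TRDN and 0.367 for JPH1), where non-overlap upward was found for 9.67% of all tested entries.

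SRL, sarcalumenin, another calcium-binding protein of the store, was called in no comparison of the deposited values. It was at 156, 116 and 191 FPKM in Tibetan libraries, 149, 223 and 188 in Wujin and 171, 159 and 165 in Large White, with breeds overlapping in all comparisons. Its log2 change for Tibetan minus Large White was -0.13 (relative 0.65, limma adjusted p = 0.581), and it was called higher after median-ratio scaling, with a log2 change of 0.85 against Large White and 0.45 against Wujin muscle.

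Inositol trisphosphate receptors, the release channels of nonmuscle cells and nuclei, were low in every library. ITPR1 was at 0.550, 0.315 and 0.559 FPKM in Tibetan, 0.356, 1.11 and 1.73 in Wujin and 1.37, 1.47 and 2.01 in Large White libraries. ITPR1 and ITPR3 were called lower in Tibetan than in Large White muscle, with relative log2 changes of -0.05 and 0.12, and neither was called after median-ratio scaling. ITPR2 took 50.7% to 64.7% of the summed FPKM of the family in Tibetan libraries, between 21.9% and 33.1% in Wujin libraries and between 30.2% and 38.5% in Large White libraries. RYR2, the ryanodine receptor of heart, was the one ryanodine receptor found and reached at most 0.429 FPKM in any library.

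Of 8 calcium pump and store entry genes 7 were tested, with 3 higher and 4 lower in Tibetan than in Large White muscle, or 3 and 3 after median-ratio scaling. Store-operated entry, by which an emptied store calls in calcium from outside, showed a change between its sensors. STIM1, the main sensor of muscle, was at 20.9, 16.3 and 23.5 FPKM in Tibetan libraries, 23.1, 22.7 and 21.5 in Wujin and 13.8, 15.2 and 16.3 in Large White. STIM2, the second sensor, was at 1.24, 1.13 and 1.08 FPKM in Tibetan, 5.76, 7.70 and 6.57 in Wujin and 6.20, 6.75 and 6.19 in Large White. STIM2 made up 5.60%, 6.48% and 4.39% of the pair in Tibetan libraries, 20.0%, 25.3% and 23.4% in Wujin and 31.0%, 30.7% and 27.6% in Large White.

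STIM2 was lower in Tibetan muscle (relative log2 change -1.01 against Large White, SE 0.12, limma adjusted p = 1.86e-06, and -1.28 against Wujin, limma adjusted p = 2.01e-06). STIM1 was called higher in Tibetan than in Large White muscle (fitted log2 change 0.39, limma adjusted p = 0.0307, relative log2 change 1.16). That call was lost without any 1 of Tibetan 1, Tibetan 3, Large White 1 or Large White 2 (highest adjusted p 0.104). After median-ratio scaling STIM1 was called higher also in Tibetan than in Wujin muscle (log2 change 0.55) and in Wujin than in Large White muscle (0.76). ORAI2 and ORAI3, pore subunits of the entry channel, were both called lower against Large White, with relative log2 changes of -0.65 and -0.11, and ORAI3 was not called after median-ratio scaling.

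Among the calcium pumps, ATP2A3, the reticulum pump of blood and epithelial cells, was at 2.40, 2.84 and 3.26 FPKM in Tibetan, 2.88, 1.78 and 1.31 in Wujin and 0.886, 1.06 and 0.893 in Large White libraries (relative log2 change 1.75 for Tibetan minus Large White, limma adjusted p = 0.00132), and after median-ratio scaling it was called higher also in Tibetan than in Wujin muscle (log2 change 0.92). ATP2B4, a plasma membrane pump, was at 4.39, 2.46 and 3.33 FPKM in Tibetan, 5.10, 13.6 and 16.2 in Wujin and 17.9, 22.7 and 23.9 in Large White (relative log2 change -1.60 for Tibetan minus Large White, limma adjusted p = 0.000227). Wujin 1 was the low Wujin library for ATP2B4, as for CHRNA1 and CACNA2D1.

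Partners of coupling and calcium handling outside these families were read from a list of 30 genes, of which 21 were found and tested. In Tibetan against Large White muscle 12 were higher and 4 lower, against Wujin muscle 10 and 4, and in Wujin against Large White muscle 3 and 1. Of all tested entries 13% and 63.2%, 13.8% and 53.9%, and 1.67% and 4.85% were called higher and lower in the same comparisons. After median-ratio scaling the counts were 17 and 3, 17 and 3, and 4 and 0, where 32.4% and 33%, 30.9% and 30.4%, and 1.86% and 1.27% of all entries were called. ATP2A1, the calcium pump of fast fibres, was at 2845, 2034 and 3815 FPKM in Tibetan libraries, 143, 172 and 149 in Wujin and 52.6, 52.6 and 45.1 in Large White, a relative log2 change of 6.56 for Tibetan minus Large White (limma adjusted p = 7.47e-08). HRC, a calcium-binding partner of triadin, TMEM38A, a potassium channel of the store membrane, and ATP2A1 were the 3 that also rose in Wujin against Large White muscle. Their limma adjusted p was 0.0322, 0.0335 and 0.00753, and whether these calls hold with a library left out is not given here. The 4 that were lower in Tibetan than in Large White muscle were ASPH, CALR, DYSF and SELENON, with relative log2 changes of -1.47, -1.57, 0.02 and -0.99, so that DYSF fell by no more than the median entry. CALR, calreticulin, a calcium-binding chaperone of the endoplasmic reticulum of all cells, averaged 54.8 ± 1.2 FPKM in Tibetan, 214 ± 26 in Wujin and 283 ± 11 in Large White libraries (SD, n = 3 each).

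**Figure D4:**
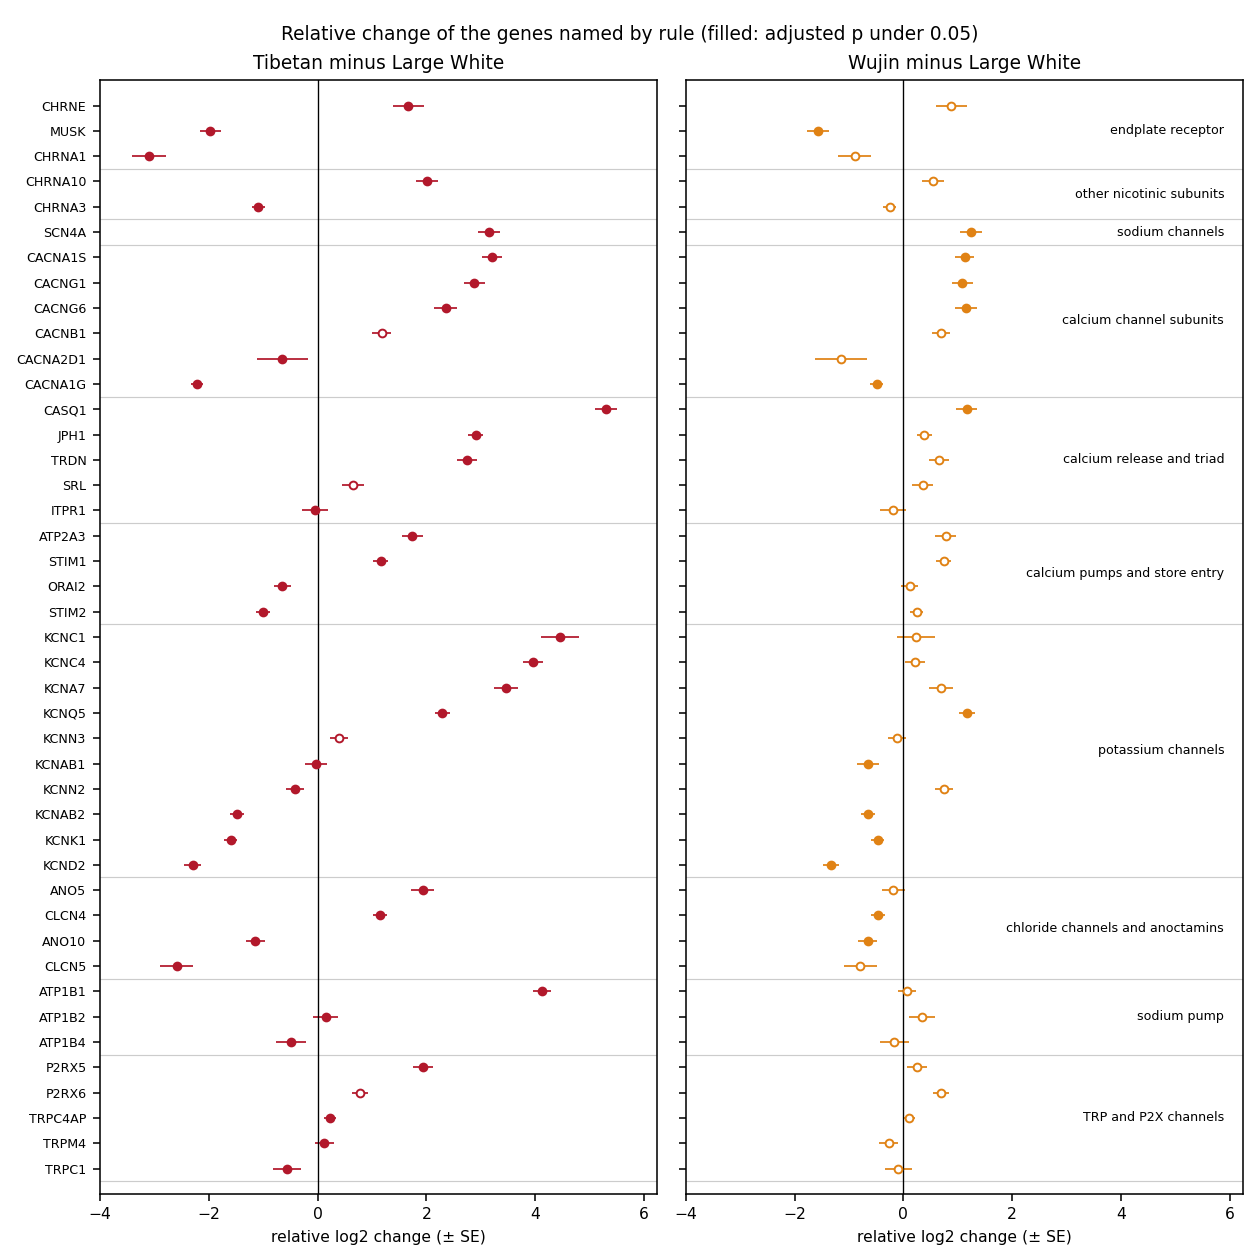
Relative log2 change with its SE (x axis) of 43 of the 72 tested genes (y axis, grouped by role), for Tibetan minus Large White (left) and Wujin minus Large White (right). Filled points were called, by the limma test of the fitted change before the median was subtracted. Tibetan points run between -3.10 for CHRNA1 and 5.30 for CASQ1, and Wujin points stay between -1.57 for MUSK and 1.25 for SCN4A.

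Potassium channels were the largest role, with 64 genes, of which 20 were tested. In Tibetan against Large White muscle 8 were higher and 10 lower, and after median-ratio scaling the counts were 9 and 7. The Kv3 channels, fast delayed rectifiers that shorten action potentials, stood out. KCNC1 was at 25.1, 7.18 and 10.8 FPKM in Tibetan libraries, 0.0488, 0.135 and 0.0858 in Wujin and 0.0488, 0.0418 and 0.0837 in Large White. KCNC4 was at 9.70, 8.72 and 14.9 FPKM in Tibetan, 0.280, 0.401 and 0.246 in Wujin and 0.280, 0.267 and 0.332 in Large White. Both passed the limit through the Tibetan libraries alone, so a difference was built into their being tested. Their relative log2 changes for Tibetan minus Large White were 4.46 (SE 0.35, limma adjusted p = 1.16e-05) and 3.97 (SE 0.18, limma adjusted p = 6.14e-07), and neither was called between Wujin and Large White.

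KCNA7, a Kv1 channel of skeletal muscle and heart, was at 25.7, 17.0 and 33.7 FPKM in Tibetan libraries, 4.03, 5.33 and 4.45 in Wujin and 2.74, 3.46 and 2.73 in Large White. It rose in Tibetan muscle against Large White (relative log2 change 3.46, SE 0.22, limma adjusted p = 5.45e-06) and against Wujin (2.75, limma adjusted p = 2.49e-05). KCNQ5, a Kv7 channel of muscle and brain, was at 2.47, 2.41 and 3.35 FPKM in Tibetan, 1.52, 1.72 and 1.43 in Wujin and 0.196, 0.419 and 0.282 in Large White. The 3 breeds did not overlap, and all 3 comparisons were called, with relative log2 changes of 2.29 for Tibetan minus Large White, 1.18 for Wujin minus Large White and 1.09 for Tibetan minus Wujin.

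KCND2, KCNK1 and KCNAB2 were among the 10 potassium channel genes that fell and were near 0 in Tibetan muscle. KCND2, a Kv4 channel of transient outward current, was listed at 0, 0 and 0.0715 FPKM in Tibetan libraries, 1.52, 1.96 and 2.56 in Wujin and 6.90, 7.39 and 8.62 in Large White. KCNK1, a background leak channel, was listed at 0, 0.208 and 0.166 FPKM in Tibetan, 2.87, 2.45 and 2.63 in Wujin and 4.98, 4.51 and 4.91 in Large White. KCNAB2, a cytoplasmic beta subunit of Kv1 channels, was at 0.0892, 0.0991 and 0.171 FPKM in Tibetan, 1.96, 1.90 and 2.02 in Wujin and 4.58, 3.69 and 4.80 in Large White. Each of the 3 separated the breeds without overlap, in the order Large White, Wujin, Tibetan, and each was called lower in all 3 comparisons, except that the Wujin minus Large White call of KCNK1 was lost after median-ratio scaling. For KCND2 the relative log2 change was -2.30 for Tibetan minus Large White (SE 0.15, limma adjusted p = 3e-07) and -1.33 for Wujin minus Large White (limma adjusted p = 0.00278).

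The small-conductance calcium-activated channels differed among themselves. KCNN3, which in rodents is expressed by immature and denervated muscle, was at 5.01, 3.36 and 3.78 FPKM in Tibetan, 3.74, 4.95 and 4.10 in Wujin and 4.73, 5.18 and 6.71 in Large White libraries, and it was called in no comparison, although after median-ratio scaling it was called higher in Tibetan than in Large White muscle (log2 change 0.43) and than in Wujin muscle (0.54). KCNN2 was at 0.518, 0.326 and 0.250 FPKM in Tibetan, 2.61, 4.45 and 3.72 in Wujin and 2.24, 2.11 and 1.95 in Large White, and fell in Tibetan muscle against Wujin (relative log2 change -1.19, limma adjusted p = 1.87e-05) and against Large White (-0.42, limma adjusted p = 0.000161). After median-ratio scaling KCNN2 was also called higher in Wujin than in Large White muscle (log2 change 0.67). KCNAB1 was lower in both other breeds than in Large White muscle, at 1.27, 1.69 and 1.25 FPKM in Tibetan, 1.04, 1.63 and 1.28 in Wujin and 2.86, 2.32 and 4.61 in Large White, but neither call was made after median-ratio scaling, where it was called higher in Tibetan than in Wujin muscle (log2 change 0.51), and the Wujin call was lost without any 1 of the 9 libraries.

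Of 14 chloride channel and anoctamin genes, 11 were tested, with 4 higher and 6 lower in Tibetan than in Large White muscle, or 5 and 3 after median-ratio scaling. CLCN5, an endosomal chloride and proton exchanger, was at 0.250, 0.151 and 0.301 FPKM in Tibetan libraries, 2.64, 7.20 and 7.73 in Wujin and 9.71, 11.5 and 14.1 in Large White, a relative log2 change of -2.59 for Tibetan minus Large White (SE 0.30, limma adjusted p = 9.33e-06). ANO10, an anoctamin of intracellular membranes, was at 2.84, 1.67 and 2.49 FPKM in Tibetan, 4.95, 5.73 and 7.16 in Wujin and 10.5, 11.5 and 12.4 in Large White, and was called lower in all 3 comparisons. Both fell in the same order of breeds as CHRNA1.

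ANO5, the anoctamin whose loss causes limb-girdle muscular dystrophy in humans, was at 8.80, 10.3 and 13.8 FPKM in Tibetan libraries, 2.04, 3.86 and 3.53 in Wujin and 4.36, 4.61 and 3.89 in Large White. It rose in Tibetan muscle against Large White (relative log2 change 1.93, SE 0.21, limma adjusted p = 0.00073) and against Wujin (2.09, limma adjusted p = 0.000158). CLCN4, an exchanger close to CLCN5, was at 8.36, 7.39 and 8.60 FPKM in Tibetan, 3.17, 3.66 and 3.49 in Wujin and 6.56, 5.07 and 6.59 in Large White. It was thus lowest in Wujin muscle, with a relative log2 change of 1.59 for Tibetan minus Wujin (limma adjusted p = 8.82e-05) and of -0.47 for Wujin minus Large White (limma adjusted p = 0.0298), the last lost after median-ratio scaling. Its Tibetan minus Large White call was lost without Tibetan 1, Tibetan 3 or Large White 2 (highest adjusted p 0.109).

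Of 24 TRP and P2X channel genes 7 were tested, and in Tibetan against Large White muscle 1 was higher and 4 lower, or 4 higher and 1 lower after median-ratio scaling. P2RX5, an ATP-gated channel of differentiating muscle, was the gene that rose under both, at 14.7, 14.2 and 21.3 FPKM in Tibetan, 5.77, 7.51 and 8.29 in Wujin and 7.49, 6.21 and 6.73 in Large White libraries (relative log2 change 1.93, SE 0.18, limma adjusted p = 0.000295). P2RX6, whose values in Tibetan libraries were 3.46, 3.56 and 5.03 FPKM beside 6.06, 5.42 and 6.51 in Wujin and 4.21, 3.38 and 4.31 in Large White, was higher in Wujin than in Large White muscle without overlap but missed the threshold (limma adjusted p = 0.0721). It was called lower in Tibetan than in Wujin muscle as deposited (limma adjusted p = 0.0171) but not after median-ratio scaling, where it was called higher in Tibetan than in Large White muscle (log2 change 0.79).

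TRPC1, a cation channel linked to stretch and store depletion, was at 0.303, 0.701 and 0.632 FPKM in Tibetan, 1.19, 2.91 and 2.78 in Wujin and 2.47, 2.37 and 4.01 in Large White libraries and was lower in Tibetan than in Large White muscle under both scalings (relative log2 change -0.57, limma adjusted p = 0.00105). TRPC4AP, which is matched by the TRPC symbol rule but encodes a ubiquitin ligase adaptor and not a channel, was at 28.7, 24.2 and 29.3 FPKM in Tibetan, 36.1, 39.0 and 38.0 in Wujin and 41.0, 39.4 and 40.0 in Large White. It was called lower in Tibetan than in Large White muscle as deposited (log2 change -0.54, limma adjusted p = 0.00145) and higher after median-ratio scaling (log2 change 0.41). TRPM4 was at 2.47, 2.74 and 2.99 FPKM in Tibetan, 2.32, 3.39 and 4.21 in Wujin and 4.41, 4.67 and 5.53 in Large White. Its lower call in Tibetan against Large White muscle (limma adjusted p = 0.00694) was not made after median-ratio scaling, where it was called higher in Tibetan than in Wujin muscle (log2 change 0.39).

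Most of the 94 genes below the limit were potassium channels (44), TRP and P2X channels (17) and calcium channel subunits (11). The mean was under 0.1 FPKM for 41 of them, and none was listed at 0 in all 9 libraries. Tibetan libraries were all listed at 0 for 27 of these genes, Wujin libraries for 12 and Large White libraries for 8. The breed with the highest mean was Tibetan for 18, Wujin for 34 and Large White for 42. The same shares over all low entries are not given here, so these counts say nothing particular about these genes. Fitted without the limit, 2 of the 94 were higher and 33 lower in Tibetan than in Large White muscle, where 10.4% of 19643 entries were higher and 50.9% lower. Those entries include the 13106 that reached the limit, so these shares are not those of low entries alone.

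The 2 higher genes were ATP2B2 and CHRNA9. ATP2B2, a plasma membrane calcium pump of neurons and hair cells, was at 2.88, 1.71 and 4.13 FPKM in Tibetan libraries, listed at 0, 0.0708 and 0.0193 in Wujin and at 0, 0.0378 and 0.00937 in Large White (log2 change 1.90 against Large White, limma adjusted p = 5.59e-05). CHRNA9, the partner of CHRNA10 in hair cell receptors, was at 5.99, 0.685 and 0.954 FPKM in Tibetan, 0.139, 0 and 0.162 in Wujin and 0.0924, 0.0793 and 0.0792 in Large White (log2 change 1.39, limma adjusted p = 0.0272), with Tibetan 1 far above the others. CACNA1D, a calcium channel of neurons and sinoatrial cells, was at 0.0244, 0.0592 and 0.0148 FPKM in Tibetan, 1.15, 1.72 and 1.5 in Wujin and 0.985, 1.08 and 0.712 in Large White. These genes were singled out after their values were seen.

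The Wujin against Large White calls were sensitive to single libraries. Among the 8 higher genes were SCN4A, KCNQ5, CASQ1, CACNG6, CACNA1S, ANO1 and CACNG1, and the 8 lower genes were MUSK, KCND2, ANO10, KCNAB1, KCNAB2, CACNA1G, KCNK1 and CLCN4. MUSK and KCND2 were the 2 of the 16 called genes that were called without any 1 library. KCNAB2 and KCNQ5 were lost only without Large White 3 (limma adjusted p = 0.0684 and 0.0606). Without Large White 3, limma called 0 higher and 2 lower, beside 0.175% and 0.328% of all entries called. With all 9 libraries 6.52% of all entries were called in either direction. At an unadjusted p under 0.05, 13 tested genes were higher and 12 lower without Large White 3. The share of all entries at that unadjusted threshold is not given here, so these 2 counts have no background beside them. Without Wujin a the counts of called genes were 1 and 3, without Large White 1 they were 1 and 4, and without Large White 2 they were 1 and 3. In these fits 1.08%, 1.4% and 0.671% of all entries were called in either direction, so calls became fewer over all entries too. Of the 64 Tibetan against Large White calls 53 held without any 1 library, as did 47 of the 54 Tibetan against Wujin calls.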

How the data were processed

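RNA was extracted with Trizol and made into TruSeq libraries, per the labels' protocols. The authors deposited 1 table of FPKM values for all 9 libraries. The submitters' processing notes list the aligner TopHat. For the genome build, the annotation, the strand of the libraries and the program behind the FPKM values, the answer is not given in the sources used here, so reads of overlapping genes cannot be told apart. The FPKM values hold no counts, so precision from depth is unknown. Table columns were mapped to libraries by their headers. A pair of Wujin columns carries the same header and is called Wujin a and Wujin b. Another Wujin library has no column under its own header. The headers therefore do not show which of the pair it is, or that the pair are different libraries. No column of sample values was left unused. Gene IDs were paired with symbols through a table of pig gene names.

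The 13106 entries that averaged 1 FPKM or more over the 9 libraries were fitted with limma 3.58.1 in R 4.3.3 on log2(FPKM + 1), with 3 breed means, all 9 libraries, a variance trend on mean level and two-sided tests. P-values were adjusted by Benjamini-Hochberg over all entries tested, and a gene was called at an adjusted p under 0.05. The fit was tested on simulated data. Alternatives were other pseudocounts, filters and scalings, only the 2 breeds compared, no trend, a minimum fold change, each library left out, and a replicate block. The genes named are 39 chosen key genes, of which 26 were found, the 5 highest and 5 lowest called genes of each comparison, and the 2 of smallest p in each role. Some genes that this rule chose are counted in the totals but not reported here. Other genes named were picked with their values in view. The members, roles and lists were chosen with earlier results of these data known.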

Additional observations from a re-analysis of the deposited data

How the results depend on the processing

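The 28 genes higher in Tibetan minus Large White became 35 after median-ratio scaling, 34 after quantile normalization, 16 at a mean of at least 5 FPKM and 18 at a log2 change of at least 1, and the 36 lower became 67 with no filter, 11 at 5 FPKM, 20 after median-ratio scaling and 17 after quantile normalization. Leaving out each library gave 24 to 29 higher and 32 to 36 lower. Wujin minus Large White gave 14 higher after quantile normalization and 2 at a log2 change of at least 1, and gave 3 lower with a pseudocount of 0.1, 3 at 5 FPKM, 4 after median-ratio scaling, 5 after quantile normalization and 2 at a log2 change of at least 1; leaving out each library gave 0 to 9 higher and 2 to 10 lower. Tibetan minus Wujin gave 14 higher at 5 FPKM, and 63 lower with no filter, 9 at 5 FPKM, 20 after median-ratio scaling, 16 after quantile normalization and 18 at a log2 change of at least 1; leaving out each library gave 21 to 23 and 27 to 36. Leaving out each library, limma called 70.5% to 79.4%, 0.504% to 12.5% and 61.2% to 73.1% of all entries in either direction. The order of comparisons is as above. No share of all entries is given for quantile normalization, the other pseudocount, the 5 FPKM limit or the minimum log2 change. Nor is it given for Tibetan minus Wujin with no filter. Those counts therefore say nothing particular about these genes. Filters change the number of genes tested, and for the other shifts the cause was not tested. All 28, 8 and 22 higher calls stayed higher after median-ratio scaling, as did 20, 4 and 20 of the lower calls. Of 86 calls of the 43 named genes 52 held throughout.

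Signs turned for these log2 changes. After median-ratio scaling, Tibetan minus Large White became 0.067 for ATP1B2, 0.431 for KCNN3, 0.846 for SRL, 0.410 for TRPC4AP and 0.118 for TRPM4. Wujin minus Large White became 0.071 for ATP1B1, 0.107 for ORAI2 and 0.141 for TRPC4AP. Tibetan minus Wujin became 0.622 for CACNA2D1, 0.626 for CACNB1, 0.540 for KCNN3, 0.124 for P2RX6, 0.453 for SRL, 0.552 for STIM1, 0.269 for TRPC4AP and 0.387 for TRPM4. After quantile normalization, Tibetan minus Large White became 0.259 for ATP1B2, 0.119 for ITPR1, 0.109 for KCNAB1, 0.469 for KCNN3 and 0.224 for TRPM4, and Wujin minus Large White 0.114 for ATP1B1, 0.177 for ORAI2 and 0.004 for TRPC4AP. Tibetan minus Wujin then became 0.314 for CACNA2D1, 0.139 for CACNB1, 0.296 for ITPR1, 0.529 for KCNN3, 0.116 for P2RX6, 0.188 for STIM1 and 0.434 for TRPM4. With equal totals without the 50 highest entries the values were 0.129 for SRL (Tibetan minus Large White), 0.028 for ORAI2 and 0.040 for TRPC4AP (Wujin minus Large White), and 0.042 for CACNA2D1, 0.024 for CACNB1 and 0.033 for KCNN3 (Tibetan minus Wujin). Leaving out each library moved Tibetan minus Large White between -0.134 and 0.084 for P2RX6 and between -0.294 and 0.065 for SRL. It moved Wujin minus Large White between -0.295 and 0.030 for ATP1B1, -0.034 and 0.051 for KCNC4, -0.038 and 0.190 for P2RX5, and -0.044 and 0.137 for STIM2. It moved Tibetan minus Wujin between -0.722 and 0.356 for CACNA2D1, -0.252 and 0.029 for CACNB1, -0.031 and 0.151 for KCNAB1, and -0.200 and 0.032 for KCNN3.

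With the replicate number as a block, Tibetan minus Large White gave 25 higher and 35 lower, and STIM1, KCNIP2, KCNT1 and TRPM7 missed the threshold (adjusted p 0.0566, 0.0765, 0.0761 and 0.0617); the block changed no other call. Deviations of libraries with the same number correlated at 0.013, -0.023 and -0.076, so no shared deviation was seen. So few libraries cannot show that those of the same number were unpaired. No paired analysis was possible for Wujin because a pair of its columns carries the same number. Depth could not be read as counts, so low values have no interval.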

Other observations

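Further tested genes, chosen after their values were seen, showed the same kinds of pattern. KCNN1, a small-conductance calcium-activated channel, was at 0.0262, 0.158 and 0.158 FPKM in Tibetan, 2.83, 2.12 and 1.75 in Wujin and 2.51, 1.74 and 1.43 in Large White libraries. KCNMA1, the large-conductance calcium-activated channel, averaged 1.82 ± 0.19, 5.38 ± 1.79 and 6.66 ± 0.69 FPKM in Tibetan, Wujin and Large White libraries. ANO1, a calcium-activated chloride channel, was at 4.04, 2.24 and 4.68 FPKM in Tibetan, 4.06, 4.77 and 4.03 in Wujin and 1.84, 1.64 and 2.06 in Large White libraries, higher in both indigenous Chinese breeds than in Large White, though its Wujin call was lost without any 1 of 6 libraries. ANO2, a relative of ANO1, ranged between 4.59 and 14.5 FPKM in Tibetan, 0.913 and 3.74 in Wujin and 2.49 and 2.84 in Large White libraries.

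Wujin 1 differed from the other Wujin libraries in several genes, chosen after their values were seen, and in markers of other cell types. Its fibroblast and connective tissue genes summed to 3065 FPKM beside 4263 and 5617, with FBN1, fibrillin, at 6.36 beside 27.4 and 49.0, and its endothelial genes to 52.6 beside 81.5 and 82.2 FPKM. The part of these cell types in the values that follow was not tested. Wujin 1 was at 9.55 FPKM for CHRNA1 beside 27.1 and 21.7, at 5.08 for CACNA2D1 beside 19.0 and 26.1, and at 2.64 for CLCN5 beside 7.20 and 7.73. For KCNE1, an accessory subunit of Kv7 channels, it was at 0.868 beside 5.31 and 4.48 FPKM.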
